A study of Mus musculus with 6 samples.

Results

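The genes described here carry fatty acids from the blood into the adipocyte and prepare them for use. They are *Lpl*, *Cd36*, *Slc27a1*, *Slc27a4*, *Fabp4*, *Fabp5*, *Acsl1*, *Acsl3*, *Acsl4* and *Acsl5*. They were chosen by symbol for their function in uptake, binding or activation and not by a threshold on their values. All 10 were among the 46517 Ensembl mouse genes of the deposited count tables, and all 10 were among the 14967 genes tested, for which at least 1 library had to reach 1 cpm (counts scaled to a common library size). RNA-seq was performed on inguinal white adipose tissue (IngWAT), the subcutaneous fat pad of the groin, in 3 samples of each of 2 genotypes. Controls were *Hdac3* floxed mice, in which the gene of the histone deacetylase HDAC3 is flanked by loxP sites but intact. H3atKO mice carry the same floxed gene together with the *Adipoq*-cre transgene, whose adiponectin promoter is active in adipocytes, so that other cells of the pad keep *Hdac3*. Per the labels and the methods of the study, animals of both groups had a C57Bl6 background and ate chow, and the study used males. Their age was 5 to 9 months per the labels, whereas the methods give a single age in weeks for all experiments. Each library was made from pooled RNA (500 ng) of 2 or 3 mice of a group. With pools, the spread between samples is that between pools and not between animals. Values of the 3 pools of a group are given below in the order of their replicate numbers.

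Circulating triglycerides cannot enter a fat cell whole. Lipoprotein lipase, made by adipocytes and held on the capillary wall by GPIHBP1, releases fatty acids from them. CD36 and the transport proteins of the SLC27 family move the fatty acids across the plasma membrane, the binding proteins FABP4 and FABP5 carry them through the cytosol, and the long-chain acyl-CoA synthetases of the ACSL family join them to coenzyme A. Only this activated form is esterified, elongated or oxidized.

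Several features of the libraries differed between the genotypes. Counts on genes ranged from 23865507 to 35200685 per library, and on the scaled cpm used throughout 3 counts are worth 0.0659 to 0.0729 cpm in floxed and 0.124 to 0.190 cpm in H3atKO libraries. Genes of the mitochondrial genome took 6.92 to 12.9% of these counts in floxed and 26.9 to 35.3% in H3atKO libraries. Genes whose longest transcript has at least 55% GC took 20.6, 12.7 and 7.63% of the nuclear counts of the floxed pools, but 4.07, 3.63 and 2.19% of those of the H3atKO pools, so every H3atKO library was poorer in GC-rich messages than every floxed library. Genotype and GC content therefore cannot be told apart here, and values after a correction for GC content are given as well. The targeted gene, *Hdac3*, had 65.8 to 80.3 cpm in floxed and 12.9 to 27.4 cpm in H3atKO samples, with no overlap (log2 fold change -1.83, limma adjusted p = 0.0213). The adipocyte marker *Adipoq* was abundant in all 6 samples, at 1916 to 2647 cpm in floxed and 1266 to 2876 cpm in H3atKO.

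Of the 10 genes, *Lpl*, *Acsl1* and *Acsl3* were upregulated in H3atKO samples and none was down-regulated in the limma voom fit, at a Benjamini-Hochberg adjusted p under 0.05 over all genes tested. By the same rule 9.42% of all genes tested were upregulated and 7.07% were down-regulated. The log2 fold change was above 0 for 8 of the 10 genes, with a median of 0.93, against -0.09 over all genes tested. For 6 genes, *Lpl*, *Cd36*, *Fabp5*, *Acsl1*, *Acsl3* and *Acsl4*, every H3atKO sample was above every floxed sample, and no gene showed the opposite order. Over all genes tested, 23.3% separated in this way with H3atKO higher and 28.5% with H3atKO lower.

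The calls depended on scaling, pairing and GC content. When cpm were taken from library sizes alone, without TMM factors, the median of all genes moved to -0.94, and 3 of the 10 genes were upregulated and 2 down-regulated, where 2.04% and 37.9% of all genes were. Of all calls 5.12% were then upregulated, against 57.1% with TMM factors, and the log2 fold changes of *Cd36*, *Fabp4* and *Acsl5* were below 0. Because both genotypes carry the replicate numbers 1, 2 and 3 and same-numbered samples deviated together, a fit with the replicate number as a block was made as well. In the blocked fit *Cd36* and *Acsl4* were also upregulated, giving 5 upregulated genes where 24.8% of all genes were, and *Slc27a1* and *Slc27a4* were down-regulated, giving 2 where 28.7% of all genes were. After the GC correction *Acsl3* alone of the 10 was upregulated, against 5.55% of all genes, and none was down-regulated, against 3.06%. The median log2 fold change of the 10 genes was then 0.12, with 6 above 0, against a median of 0.03 over all genes.

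**Figure D1:**
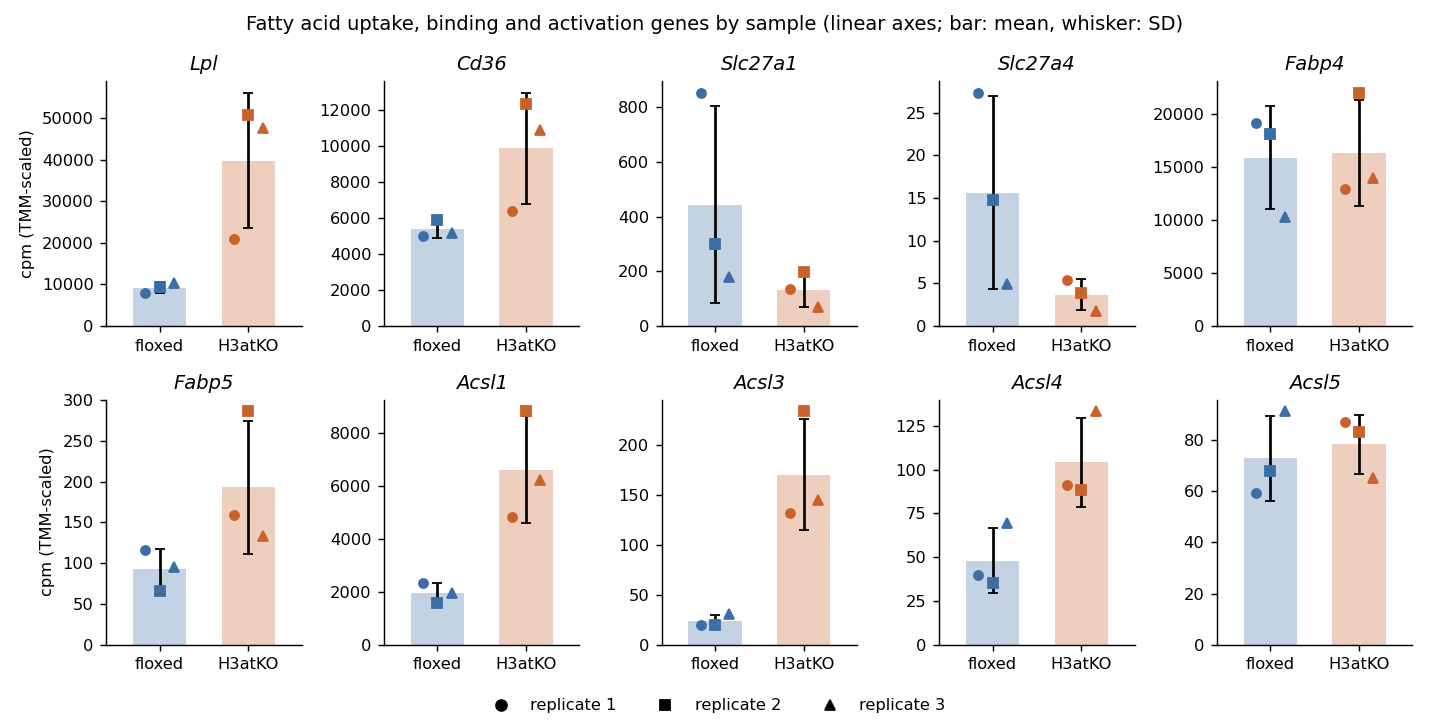
Expression of the 10 genes in cpm of the TMM-scaled library, on linear axes that differ between panels, with floxed samples in blue and H3atKO samples in orange. Bars are means, whiskers SDs (n = 3 per group) and symbols mark the replicate number; *Acsl3* had 19.4 to 30.4 cpm in floxed and 132 to 234 cpm in H3atKO samples, and the *Fabp4* and *Acsl5* groups overlap.

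*Lpl* (ENSMUSG00000015568, chromosome 8, 68880491 to 68907448, plus strand, GRCm38) encodes the lipase that starts uptake. Its expression was 7838, 9428 and 10439.5 cpm across the floxed pools and 21063, 50718 and 47767 cpm across the H3atKO pools. All H3atKO samples lay above all floxed samples, and H3atKO replicate 1 was well below the rest of its group. Its log2 fold change came to 2.02 (standard error 0.39, limma adjusted p = 0.0253), a 4.06-fold difference, and the differences within replicate numbers were 1.43, 2.43 and 2.19. *Lpl* ranked 5, 4 and 2 among nuclear genes by count in the floxed libraries and 2, 1 and 2 in the H3atKO libraries. It took 1.09, 1.40 and 1.63% of the nuclear counts of the floxed pools and 2.65, 5.17 and 4.89% of those of the H3atKO pools, so that in each knock out library it was the most or the second most counted nuclear gene.

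The call of *Lpl* did not hold in every setting. With the GC correction its log2 fold change was 1.297 (standard error 0.32, limma adjusted p = 0.0532), and with both this correction and the replicate block it was 1.28 (limma adjusted p = 0.0424). It was lost when floxed replicate 1, floxed replicate 2, H3atKO replicate 2 or H3atKO replicate 3 was left out (limma adjusted p = 0.0731, 0.110, 0.0602 and 0.103), with a log2 fold change of 1.75 to 2.41 over the 6 such fits.

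Genes of proteins that handle the lipase were called in either direction. Among 15 listed partners of lipoprotein lipase and other lipases of the vessel wall, 13 were tested, of which 1 was upregulated and 4 were down-regulated, with a median log2 fold change of -2.01. Over all genes tested 9.42% and 7.07% were called in these directions. With the GC correction the list had no upregulated and 1 down-regulated gene and a median of -0.54. *Gpihbp1*, which ferries the lipase across capillary endothelium and anchors it there, had 218, 137 and 39.4 cpm across the floxed pools and 20.8, 19.4 and 5.31 cpm across the H3atKO pools. The groups did not overlap, and the log2 fold change was -2.97 (standard error 0.81, limma adjusted p = 0.0480). *Angptl4*, a secreted inhibitor that unfolds the lipase, had 739, 555 and 176 cpm across the floxed pools and 110.0, 119.9 and 36.3 cpm across the H3atKO pools. All H3atKO pools were lower, and the log2 fold change was -2.39 (standard error 0.64, limma adjusted p = 0.0461). *Pcsk6*, a proprotein convertase that cleaves lipases of this family, had 38.2 to 81.2 cpm in floxed and 12.1 to 22.3 cpm in H3atKO samples (log2 fold change -2.01, standard error 0.43, limma adjusted p = 0.0301). The upregulated gene of the list was *Vldlr*, a receptor that binds triglyceride-rich lipoproteins. It had 75.0, 95.2 and 189 cpm across the floxed pools and 311, 458 and 386 cpm across the H3atKO pools, with no overlap (log2 fold change 1.78, standard error 0.37, limma adjusted p = 0.0296).

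None of these 4 calls held with the GC correction alone, where *Gpihbp1* was at -2.01, *Angptl4* at -2.02, *Pcsk6* at -0.54 and *Vldlr* at 1.10 (limma adjusted p = 0.0810, 0.0729, 0.317 and 0.0517). With the correction and the replicate block together *Gpihbp1*, *Angptl4* and *Vldlr* were called, at -2.07, -2.04 and 1.10 (limma adjusted p = 0.0103, 0.0103 and 0.0383), and *Pcsk6* was not (-0.52, limma adjusted p = 0.0928). When single samples were dropped, *Gpihbp1* ranged over -3.67 to -2.38 and *Angptl4* over -3.01 to -1.85 on the log2 scale, both largest in size without floxed replicate 3. *Lmf1*, the chaperone that folds the lipase, was chosen after its values were seen. It had 13.5, 6.64 and 2.38 cpm across the floxed pools and 0.86, 1.38 and 0.51 cpm across the H3atKO pools. The H3atKO levels came from 21, 27 and 8 counts. By library size alone, only floxed libraries reached the 1 cpm of the filter. The log2 fold change of -2.77 did not pass the test (limma adjusted p = 0.0677) and that of -3.02 with the replicate block did (limma adjusted p = 0.00578). The GC correction gave -2.75 on the longest and -0.82 on the longest basic transcript, neither of them called.

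*Gpihbp1* is a product of endothelial cells, in which *Adipoq*-cre is not active. Of 8 endothelial markers, all tested, 2 were down-regulated and none was upregulated, against 7.07% and 9.42% of all genes tested. For 3 of the 8 the log2 fold change was above 0, and the median was -0.57. The summed level of the 8 was 755 to 1099 cpm in floxed and 560 to 767 cpm in H3atKO samples, ranges that overlap. The defining marker *Pecam1* had 186 to 334 cpm in floxed and 65.4 to 114 cpm in H3atKO samples (log2 fold change -1.57, limma adjusted p = 0.0276). The part of these cells in the values of *Gpihbp1* was not tested, and in bulk tissue fewer cells of a type and less RNA per cell cannot be told apart.

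*Cd36* (ENSMUSG00000002944, chromosome 5, 17781690 to 17888801, minus strand) encodes the scavenger receptor that binds long-chain fatty acids at the plasma membrane. Its expression was 4999, 5919.5 and 5197 cpm across the floxed pools and 6396, 12328 and 10923 cpm across the H3atKO pools. The groups did not overlap, yet H3atKO replicate 1 exceeded the highest floxed sample by little. The log2 fold change of 0.83 (standard error 0.31) did not pass the test (limma adjusted p = 0.0873), whereas with the replicate block it was 0.82 (standard error 0.26, limma adjusted p = 0.0424). With the GC correction the value was -0.30 (standard error 0.34, limma adjusted p = 0.573), and with 38.4% GC *Cd36* was the most GC-poor of the 10 genes. Of all counts on genes, mitochondrial ones included, *Cd36* took 0.722% ± 0.084 in floxed and 0.715% ± 0.122 in H3atKO libraries (SD, n = 3 each), and library sizes alone gave a log2 fold change of -0.023. That value was 0.92 above the median of all genes in the same fit, and the value with TMM factors was 0.93 above its median.

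RefSeq promoters on GRCm38.p6 were given for 7 of the 10 genes, and those of *Lpl*, *Fabp4* and *Fabp5* are not shown. In the 250 bases before the start of transcription, 4 motifs were searched on both strands. These were AGGTCA, the core element of nuclear receptors such as the PPARs, found in 14.0% of 32851 mouse promoters of that length, CCAAT, found in 33.8%, CACGTG, an E-box, found in 6.02%, and TATAAA, found in 12.4%. Different motifs can share at most 2 end letters. *Cd36* was the only one of the 7 genes with AGGTCA, which it holds on the opposite strand (TGACCT), and its promoter also holds a CCAAT element. The sequence is shown for that reason, on the strand of the gene (chr5:17835897-17836146, minus strand), with both motifs in capitals. This start lies inside the annotated gene, which begins at 17888801 on the minus strand. No promoter at that position was searched, and the counts are per gene and do not tell starts apart.
*Cd36*: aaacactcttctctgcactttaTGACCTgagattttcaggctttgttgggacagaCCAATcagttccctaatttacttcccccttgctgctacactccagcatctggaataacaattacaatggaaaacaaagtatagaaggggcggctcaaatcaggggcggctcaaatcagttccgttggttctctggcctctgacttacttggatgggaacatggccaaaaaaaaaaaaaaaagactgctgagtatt

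*Slc27a1* (ENSMUSG00000031808, chromosome 8, 71568882 to 71587302, plus strand) encodes FATP1, the insulin-responsive transporter of muscle and fat. It had 853, 299 and 178 cpm across the floxed pools and 134, 196 and 68.5 cpm across the H3atKO pools. Floxed replicate 1 stood far above the rest, and H3atKO replicate 2 exceeded floxed replicate 3, so that the groups overlapped. Its log2 fold change was -1.54 (standard error 0.61, limma adjusted p = 0.0969) without and -1.52 (standard error 0.39, limma adjusted p = 0.0212) with the replicate block, and the differences within replicate numbers were -2.67, -0.61 and -1.38.

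*Slc27a4* (ENSMUSG00000059316, chromosome 2, 29802634 to 29817522, plus strand) encodes FATP4 and was expressed at a far lower level. It had 27.4, 14.7 and 4.89 cpm across the floxed pools and 5.40, 3.93 and 1.71 cpm across the H3atKO pools. Floxed replicate 3 fell within the range of the H3atKO samples and the other floxed samples lay above it. Its log2 fold change was -1.89 (standard error 0.82, limma adjusted p = 0.117), and -2.03 (standard error 0.27, limma adjusted p = 0.00378) with the replicate block. Within each genotype the libraries had the same order by *Slc27a4* level as by their share of GC-rich transcripts. For *Slc27a1* this was so in the floxed but not in the H3atKO libraries, and the order was not tested. *Slc27a1* and *Slc27a4* are the most GC-rich of the 10 genes, with 56.9% and 56.8% GC. After the GC correction the log2 fold changes came to 0.18 (standard error 0.31, limma adjusted p = 0.726) for *Slc27a1* and -0.19 (standard error 0.38, limma adjusted p = 0.760) for *Slc27a4*. Without floxed replicate 3 both were down-regulated (limma adjusted p = 0.0263 and 0.0110).

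Per kilobase of transcript, there were 22.1, 33.9 and 18.9 *Slc27a4* counts for 1000 *Slc27a1* counts in the floxed pools, and 27.7, 13.8 and 17.2 in the H3atKO pools. The ratio overlapped between groups (difference of -0.37 on the log2 scale, two-sided exact permutation test, p = 0.4, and 0.4 after adjustment over 6 such comparisons). Muscle, which also expresses *Slc27a1*, was present to varying extent. The 7 skeletal muscle markers summed to 617 to 2499 cpm in floxed and 2.53 to 3265 cpm in H3atKO samples, and none of them passed the test. By pool these sums were 1120, 617 and 2499 cpm in floxed and 381, 3265 and 2.53 cpm in H3atKO samples. The muscle marker *Ckm* had 1 count in H3atKO replicate 3. The part of muscle in the *Slc27a1* values was not tested.

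Of 5 other genes listed for fatty acid transport, 3 were tested and 1 was down-regulated, as were 7.07% of all genes tested. *Slc27a3* had 3.67, 2.52 and 1.43 cpm across the floxed pools and 0.54, 0.31 and 0.13 cpm across the H3atKO pools (log2 fold change -2.89, standard error 0.79, limma adjusted p = 0.0478). Its H3atKO levels came from 13, 6 and 2 counts, and only floxed libraries reached the 1 cpm of the filter. The call of this list thus rests on a gene that entered the test through the group in which it was higher. *Slc27a2*, the very long chain transporter of liver and kidney, was chosen after its values were seen. It had 2.55, 0.60 and 2.70 cpm across the floxed pools and 50.8, 5.61 and 14.4 cpm across the H3atKO pools. The groups did not overlap, and the log2 fold change of 3.37 (standard error 0.99) gave a limma adjusted p of 0.0534, or 0.00337 with the replicate block. H3atKO replicate 1 stood far above the rest, and without it the value was 2.43 (limma adjusted p = 0.103). It was 2.67 without floxed replicate 2 and 4.09 without H3atKO replicate 2 (limma adjusted p = 0.156 and 0.0481). Among 7 components of caveolae, the membrane pits in which CD36 resides, 6 were tested and 1 was down-regulated. This was *Cavin3*, with 67.0, 53.1 and 19.3 cpm across the floxed pools and 5.97, 10.04 and 2.59 cpm across the H3atKO pools (log2 fold change -2.90, standard error 0.71, limma adjusted p = 0.0391). Neither call held with the GC correction alone, which gave -0.50 for *Slc27a3* and -1.29 for *Cavin3* (limma adjusted p = 0.560 and 0.0734), but with the replicate block added *Cavin3* was called at -1.26 (limma adjusted p = 0.0228).

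**Figure D2:**
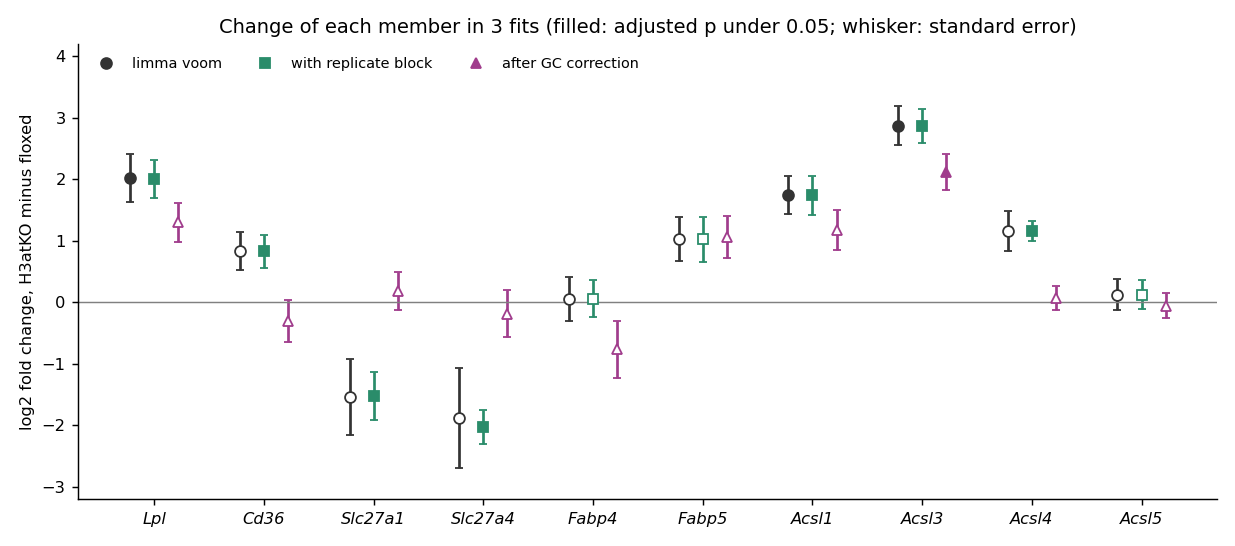
Log2 fold change (H3atKO minus floxed) of each gene in the limma voom fit, with the replicate number as a block, and after the GC correction. Whiskers are standard errors and filled symbols have an adjusted p under 0.05; *Acsl3* is filled in all 3 fits, and *Slc27a1* and *Slc27a4* are filled below 0 with the block and lie near 0 after the GC correction, at 0.18 and -0.19.

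*Fabp4* (ENSMUSG00000062515, chromosome 3, 10204088 to 10208576, minus strand) encodes the adipocyte fatty acid binding protein, aP2. It had 19231, 18163 and 10340.5 cpm across the floxed pools and 12918, 22051 and 14024 cpm across the H3atKO pools. The groups overlapped over most of their range, and the log2 fold change was 0.05 (standard error 0.36, limma adjusted p = 0.922). Of all counts on genes it took 2.13% ± 0.626 in floxed and 1.20% ± 0.279 in H3atKO libraries (SD, n = 3 each). The sign of its fold change depended on the setting, and none of the settings tried gave an adjusted p under 0.05.

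*Fabp5* (ENSMUSG00000027533, chromosome 3, 10012548 to 10016607, plus strand), the epidermal type binding protein, which adipocytes and macrophages also express, had 116, 65.9 and 94.98 cpm across the floxed pools and 159, 287 and 134 cpm across the H3atKO pools. All H3atKO samples were higher, with replicate 2 highest, but the log2 fold change of 1.02 (standard error 0.36) did not pass the test (limma adjusted p = 0.0743, and 0.0571 with the replicate block), except with DESeq2 (adjusted p = 0.0237). It was 1.07 after the GC correction (standard error 0.34, limma adjusted p = 0.0945), and 0.51 where that correction used the longest basic transcript (limma adjusted p = 0.410). The 7 macrophage markers summed to 435 to 2305 cpm in floxed and 361 to 642 cpm in H3atKO samples. Of these markers 2 were down-regulated and none upregulated, against 7.07% and 9.42% of all genes tested. After the GC correction none of the 7 markers was called, where 3.06% and 5.55% of all genes were. *Adgre1*, their defining gene, was above 0 in all 6 samples and highest, at 120 cpm, in floxed replicate 3.

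Relative to *Fabp4* in the same library, *Fabp5* came to 5.45, 3.30 and 8.34 counts for 1000 *Fabp4* counts per kilobase in the floxed pools, and to 11.2, 11.8 and 8.66 in the H3atKO pools. All H3atKO ratios were higher than all floxed ratios, that of H3atKO replicate 3 by little. The difference was 0.98 on the log2 scale (exact two-sided permutation test, p = 0.1, which 3 samples against 3 cannot go below, and 0.2 after adjustment over 6 comparisons). Library scaling cancels in this ratio. *Fabp5* was the only one of the 10 genes with near-identical copies among the annotated transcripts, at a minimum of 95% identity over 300 bases. The copies are the processed pseudogenes *Gm6166* (98.3% over 409 bases) and *Gm14328* (97.3% over 408 bases). *Gm6166* had 0.64, 0.79 and 2.21 cpm across the floxed pools and 9.02, 17.9 and 24.9 cpm across the H3atKO pools (log2 fold change 3.88, limma adjusted p = 0.0192). Reads that fit *Fabp5* and a copy equally well were given to no gene, so the level of *Fabp5* is uncertain to that extent.

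Of 12 other genes listed for binding proteins, 5 passed the filter.

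*Acsl1* (ENSMUSG00000018796, chromosome 8, 46471037 to 46536051, plus strand) encodes the main acyl-CoA synthetase of fat, heart and liver. It had 2331, 1576 and 1953 cpm across the floxed pools and 4822, 8840.1 and 6217 cpm across the H3atKO pools. All H3atKO samples lay above all floxed samples, with replicate 2 lowest among floxed and highest among H3atKO samples. In the limma voom fit the log2 fold change came to 1.74 (standard error 0.31, limma adjusted p = 0.0224), a 3.34-fold rise, and the differences within replicate numbers were 1.05, 2.49 and 1.67. The GC correction on the longest transcript, which holds a retained intron, gave 1.18 (standard error 0.32, limma adjusted p = 0.0670). With the GC content of its longest basic transcript the log2 fold change was 1.71 (limma adjusted p = 0.0225). The call was lost without floxed replicate 1, floxed replicate 2, H3atKO replicate 2 or H3atKO replicate 3 (limma adjusted p = 0.0560, 0.112, 0.0537 and 0.0888), and the log2 fold change was 1.46 to 1.93 over the 6 fits that left out a sample. An antisense gene that overlaps exons of *Acsl1* by 1039 bases was not among the genes of the deposited counts, so no values of it were available.

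*Acsl3* (ENSMUSG00000032883, chromosome 1, 78657825 to 78707743, plus strand) encodes the synthetase of the endoplasmic reticulum and of nascent lipid droplets. It had 19.6, 19.4 and 30.4 cpm across the floxed pools and 132, 234 and 146 cpm across the H3atKO pools. All H3atKO samples were several times higher than all floxed samples. The log2 fold change of 2.87 (standard error 0.32, limma adjusted p = 0.00887), a 7.32-fold rise, was the highest of the 10 genes in the limma voom fit, and it was 2.12 with the GC correction (standard error 0.30, limma adjusted p = 0.0164). With each sample left out in turn it stayed between 2.57 and 3.09, and the gene was called in all such fits but that without floxed replicate 2 (limma adjusted p = 0.0527). By count, *Acsl3* ranked 6397, 6063 and 4419 among nuclear genes in the floxed libraries and 1096, 659 and 1249 in the H3atKO libraries. *Utp14b*, a gene of ribosomal RNA processing that overlaps exons of *Acsl3* on the same strand by 140 bases, had 4.85, 4.71 and 5.52 cpm across the floxed pools and 33.3, 34.1 and 23.6 cpm across the H3atKO pools (log2 fold change 2.59, limma adjusted p = 0.00946). Reads in the shared bases can be told apart for neither gene.

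The promoters of these 2 upregulated synthetases are shown on the strand of the gene with CCAAT elements in capitals (on the opposite strand they read ATTGG). *Acsl1* has 2 starts in the table, with promoters at chr8:46470787-46471036 and chr8:46490716-46490965, and *Acsl3* has chr1:78657575-78657824, all on the plus strand. The counts are per gene and do not tell the starts apart. The upstream *Acsl1* promoter holds none of the 4 motifs, the downstream one holds 2 CCAAT elements, and that of *Acsl3* holds 1. Their GC contents were 72.0, 48.4 and 75.6%, against a median of 52.4% over all promoters.
*Acsl1*, upstream: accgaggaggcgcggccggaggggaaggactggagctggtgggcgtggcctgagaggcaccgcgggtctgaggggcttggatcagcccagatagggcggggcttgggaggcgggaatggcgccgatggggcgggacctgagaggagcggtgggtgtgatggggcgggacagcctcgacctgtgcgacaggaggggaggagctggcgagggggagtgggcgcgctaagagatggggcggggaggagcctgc
*Acsl1*, downstream: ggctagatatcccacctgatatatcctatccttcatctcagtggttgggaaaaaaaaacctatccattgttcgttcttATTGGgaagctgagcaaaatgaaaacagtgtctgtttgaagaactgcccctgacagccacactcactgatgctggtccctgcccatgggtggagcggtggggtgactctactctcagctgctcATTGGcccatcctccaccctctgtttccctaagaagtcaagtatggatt
*Acsl3*: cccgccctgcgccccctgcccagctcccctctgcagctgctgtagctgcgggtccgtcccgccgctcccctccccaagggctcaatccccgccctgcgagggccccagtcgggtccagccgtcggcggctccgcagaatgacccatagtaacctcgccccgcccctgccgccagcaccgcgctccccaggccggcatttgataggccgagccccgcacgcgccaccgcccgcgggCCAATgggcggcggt

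*Acsl4* (ENSMUSG00000031278, chromosome X, 142317993 to 142390535, minus strand) encodes the synthetase that prefers arachidonic acid. It had 39.6, 35.0 and 69.4 cpm across the floxed pools and 91.1, 88.1 and 133 cpm across the H3atKO pools. The groups did not overlap, and replicate 3 was the highest in both. The log2 fold change of 1.16 (standard error 0.33) missed the threshold (limma adjusted p = 0.0509) and passed it with the replicate block (standard error 0.17, limma adjusted p = 0.00437). edgeR's quasi-likelihood test gave an adjusted p of 0.0433. With the GC correction the log2 fold change was 0.065 (standard error 0.19, limma adjusted p = 0.839), and with 39.0% GC *Acsl4* stood next to *Cd36* at the GC-poor end of the 10 genes.

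*Acsl5* (ENSMUSG00000024981, chromosome 19, 55251938 to 55297720, plus strand), a synthetase of mitochondria and endoplasmic reticulum, had 59.4, 68.1 and 91.5 cpm across the floxed pools and 87.1, 83.2 and 65.4 cpm across the H3atKO pools. The groups overlapped over most of their range, and its log2 fold change was 0.12 (standard error 0.26, limma adjusted p = 0.724). *Zdhhc6* overlaps its exons by 167 bases on the opposite strand and did not pass the test (log2 fold change 0.45, limma adjusted p = 0.170). Whether the counting used the strand is not given in the sources used here, so reads in those bases, and in the antisense overlap of *Acsl1*, cannot be told apart.

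Together the 4 *Acsl* genes took 0.340, 0.252 and 0.335% of the nuclear counts of the floxed pools and 0.646, 0.942 and 0.672% of those of the H3atKO pools. *Acsl1* made up most of their summed counts per kilobase in every sample, from 92.2 to 95.8% in floxed and from 94.6 to 96.0% in H3atKO. *Acsl3* held 0.79, 1.14 and 1.42% in the floxed pools and 2.56, 2.51 and 2.20% in the H3atKO pools. *Acsl5* held 2.24, 3.71 and 3.97% in the floxed pools and 1.57, 0.83 and 0.92% in the H3atKO pools. Neither share overlapped between the groups, with differences of 1.31 and -2.20 percentage points (exact two-sided permutation test, p = 0.1 each, the lowest possible, and 0.2 after adjustment over 6 comparisons). In each floxed sample *Acsl5* was ahead of *Acsl3*, and in each H3atKO sample *Acsl3* was ahead of *Acsl5*. The shares of *Acsl1* and *Acsl4* overlapped (exact permutation p = 0.3 and 0.4).

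**Figure D3:**
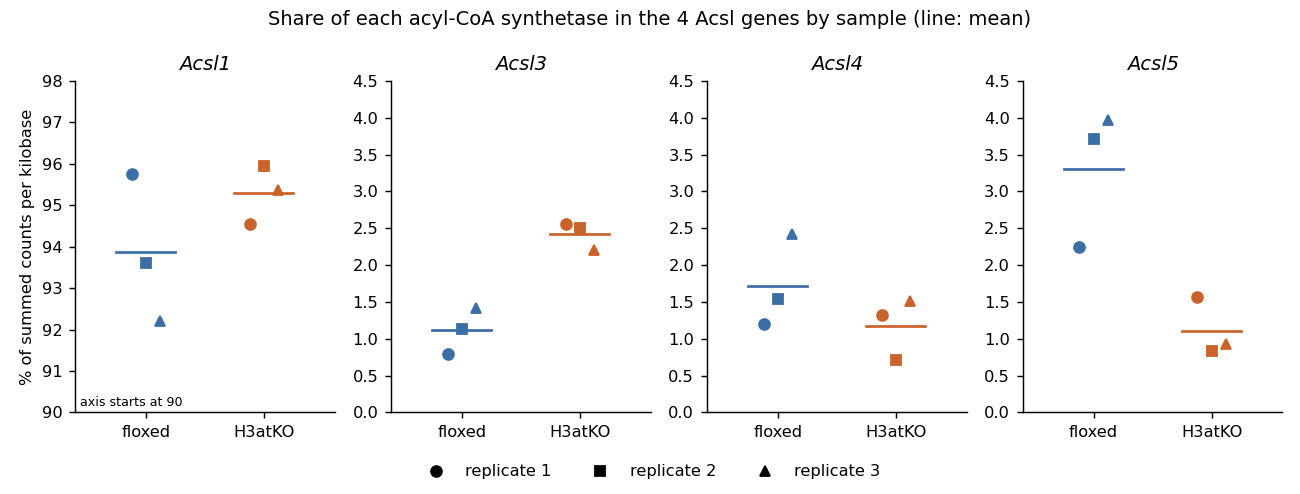
Share of each synthetase in the summed counts per kilobase of the 4 *Acsl* genes, in percent, by sample, with lines at group means. The *Acsl1* axis runs from 90 to 98% and the others start at 0; *Acsl3* goes from a mean of 1.12% in floxed to 2.42% in H3atKO, and *Acsl5* from 3.31 to 1.11%.

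Of 14 other enzymes that activate fatty or short acids, 10 were tested, 3 were upregulated and none was down-regulated. Over all genes tested 9.42% were upregulated and 7.07% were down-regulated. *Acss2*, the cytosolic acetyl-CoA synthetase that recaptures acetate, had 30.8, 30.6 and 33.6 cpm across the floxed pools and 178, 385 and 228 cpm across the H3atKO pools. The floxed samples were nearly equal and all H3atKO samples were several times higher, and the log2 fold change of 2.98 (limma adjusted p = 0.00867, standard error 0.32) was 2.83 with the GC correction (limma adjusted p = 0.0102). The log2 fold change of its mitochondrial relative *Acss1* was 1.42 (standard error 0.36, limma adjusted p = 0.0425), and that of *Acsf2*, a medium-chain synthetase, was 1.66 (standard error 0.43, limma adjusted p = 0.0432). With the GC correction these were 2.02 and 2.84 (limma adjusted p = 0.0253 and 0.00786). Of 6 acyl-CoA binding proteins, which hold the product of the synthetases, 5 were tested and 2 were upregulated. *Acbd5*, a peroxisomal protein, had 80.4, 104 and 129.5 cpm across the floxed pools and 194, 267 and 331 cpm across the H3atKO pools (log2 fold change 1.33, standard error 0.29, limma adjusted p = 0.0327). *Acbd3*, a Golgi protein, had 35.4 to 47.7 cpm in floxed and 68.2 to 79.5 cpm in H3atKO samples (log2 fold change 0.83, standard error 0.23, limma adjusted p = 0.0487). With the GC correction their values were 0.32 and -0.20, and neither was called.

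Over the 6 lists, 42 of 59 genes were tested, 6 were upregulated and 7 down-regulated, with a median log2 fold change of 0.02. Over all genes 9.42% and 7.07% were called. With the replicate block the counts were 9 and 14 of 42, where 24.8% and 28.7% of all genes were called. They were 5 and 3 with the GC correction, against 5.55% and 3.06% of all genes, and 1 and 16 with library sizes alone, against 2.04% and 37.9%. Of the genes named from these lists by size of change, *Acss2* was called in 5 of the 6 fits that left out a sample and the others only in the fit without floxed replicate 3.

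**Figure D4:**
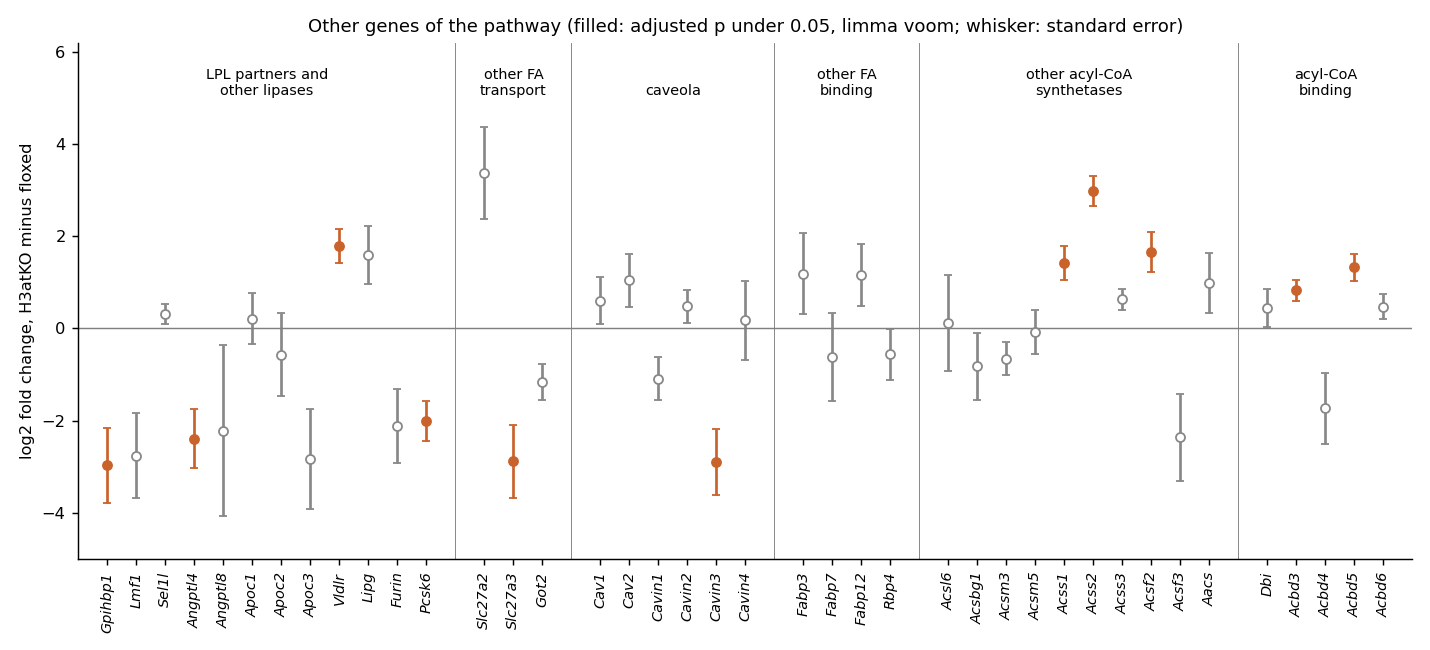
Log2 fold change (H3atKO minus floxed, limma voom) of 40 of the 42 tested genes of the 6 lists, with standard errors, filled where the adjusted p was under 0.05. Among the lipase partners shown, 4 genes lie above 0, and the called acyl-CoA synthetases and acyl-CoA binding proteins all lie above it.

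The levels of the 10 genes were compared per kilobase of the longest basic transcript. In floxed samples the order of the means was *Fabp4* (17758 cpm per kilobase), *Lpl* (2244), *Cd36* (1580), *Acsl1* (501), *Slc27a1* (159), *Fabp5* (93.4), *Acsl5* (17.2), *Acsl4* (9.09), *Acsl3* (5.85) and *Slc27a4* (3.86). Neighbours whose samples overlapped were *Slc27a1* and *Fabp5*, *Acsl4* and *Acsl3*, and *Acsl3* and *Slc27a4*. In H3atKO samples the upper 4 had the same order, with *Fabp4* at 18227, *Lpl* at 9684, *Cd36* at 2907 and *Acsl1* at 1700.4 cpm per kilobase. *Fabp5* (196) stood above *Slc27a1* (47.6), and *Acsl3* (43.2) above *Acsl4* (19.7) and *Acsl5* (18.5), with *Slc27a4* (0.91) last. Here *Cd36* and *Acsl1*, *Slc27a1* and *Acsl3*, and *Acsl4* and *Acsl5* overlapped. At the top, the *Lpl* level was 5119 to 12325 cpm per kilobase in H3atKO against 1905 to 2537 in floxed samples, and below that of *Fabp4* in every sample.

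**Figure D5:**
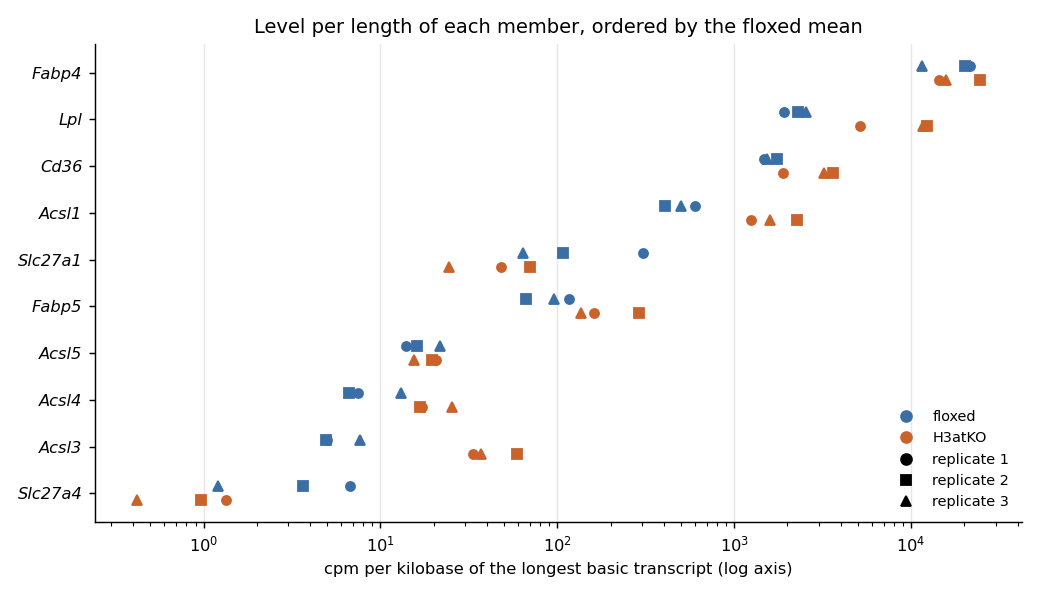
Level of each gene in cpm per kilobase of its longest basic transcript, on a log axis, for each sample, ordered by the floxed mean. *Fabp4* is at the top in both groups, the H3atKO samples of *Lpl* reach 12325 cpm per kilobase, and *Acsl3* is above *Acsl4* and *Acsl5* in H3atKO samples.

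Markers of fat cells and of other cells of the pad were measured beside these genes. Of 9 adipocyte markers, 1 was down-regulated and none upregulated, with a median log2 fold change of -1.57 and sums of 13781 to 31230 cpm in floxed and 9432 to 30873 cpm in H3atKO samples. The 6 markers of brown or beige adipocytes, cells that burn fatty acids for heat, had a median of 2.01, and 2 were upregulated. Their sums did not overlap, at 36.5 to 89.7 cpm in floxed and 327 to 1154 cpm in H3atKO samples, and were highest in H3atKO replicate 1. *Ucp1*, the defining gene of brown fat, had 12.6, 0.58 and 3.33 cpm across the floxed pools and 158, 1.33 and 11.5 cpm across the H3atKO pools, so the groups overlapped, and it passed the test with the replicate block (limma adjusted p = 0.00536) but not without it (0.353). Markers of B cells (summed 3.82 to 129 cpm in floxed, 3.72 to 435 in H3atKO), T cells (4.64 to 51.4 and 13.8 to 147) and stromal progenitors (1351 to 4404 and 935 to 1609) overlapped between groups, with 0, 0 and 1 called genes of 6 each. Epithelial markers were near 0, with at most 4.55 cpm in sum and *Epcam* at 0 in H3atKO replicate 2. With the replicate block 5 adipocyte, 4 endothelial, 3 macrophage and 2 stromal markers were down-regulated, and 5 brown or beige, 2 B cell and 4 T cell markers were upregulated. After the GC correction these numbers were 1, 2, 0 and 2 down-regulated and 3, 0 and 0 upregulated, and the median of the adipocyte markers was -0.42. Of all genes tested, 7.07% were down-regulated and 9.42% upregulated in the limma voom fit. These shares were 28.7% and 24.8% with the block, and 3.06% and 5.55% after the GC correction. The part of the cell types of these markers in the values of the 10 genes was not tested.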

How the data were processed

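Inguinal fat RNA of 3 floxed and 3 H3atKO pools was measured with poly(A)-selected, stranded libraries. The authors trimmed reads (cutadapt 1.3), aligned them to GRCm38 (STAR 2.4.2a) and counted them per Ensembl gene (HTSeq 0.6.1), per the methods and the submitters' processing notes. The deposited values are raw counts per gene and sample. Whether counting used the strand is not given in the sources used here. The 5 tally lines of each file (reads given to no gene) were left out. Alignments with more than 1 place made up 28.3 to 35.2% of alignments in floxed and 43.8 to 45.5% in H3atKO files.

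Identifiers were matched to GENCODE M21 (46005 of 46517). The filter (1 cpm or more in any sample), TMM scaling (edgeR 4.0.16) and limma 3.58.1 voom in R 4.3.3 follow the methods of the study, and p-values had a Benjamini-Hochberg adjustment over 14967 genes. Values are cpm of the TMM-scaled library (factors 1.30 to 1.37 in floxed, 0.66 to 0.92 in H3atKO). Floors in cpm cover counting error only. The GC correction subtracts from each sample's voom values a robust loess curve (span 0.3) on GC content of the longest transcript, and with it any genotype effect related to GC content. Of the fits, only limma voom without block or GC correction was also run on simulated counts. Ratios and shares were compared by exact permutation tests (scipy 1.17.1).

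The labels give groups and replicate numbers but not what a number stands for. Same-numbered samples correlated after centring on genotype with r of 0.510, 0.389 and 0.264, so the blocked fit is given beside the results it changes. Nothing says whether pools of a group share animals, extractions or days, so p-values measure the spread between these pools. From each pathway list, called genes were named, at most 3 per direction by size of change, and 2 genes of these lists are not reported here and were left out of the plot. The 10 genes, the lists, the tests and the alternatives were chosen with earlier results of these data known. The share of counts on GC-rich genes, the promoter motifs, the GC correction on basic transcripts and the exon length alternative were added after the counts had been seen. Alternatives were edgeR's quasi-likelihood test, DESeq2 1.42.0, other scalings and filters, the block, and leaving out each sample.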

Additional observations from a re-analysis of the deposited data

How the results depend on the processing

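*Acsl3* was upregulated under all alternatives but the fit without floxed replicate 2, and *Fabp4* and *Acsl5* were called under none. The calls of the other genes moved, and why was not tested. Pairs of counts below are upregulated and then down-regulated genes. In the limma voom fit they were 1 and 4 lipase partners, 0 and 1 transport proteins, 0 and 1 caveola components, 0 and 1 binding proteins, 3 and 0 synthetases and 2 and 0 acyl-CoA binding proteins, and a list is given again only where its pair moved. DESeq2 called 6 upregulated and 2 down-regulated of the 10 genes, 2935 and 3465 of all genes and 2 and 7 lipase partners, 1 and 2 transport proteins, 1 and 1 caveola components, 4 and 1 synthetases and 2 and 1 acyl-CoA binding proteins, with log2 fold changes of 0.95 for *Cd36*, -1.66 for *Slc27a1*, -2.02 for *Slc27a4*, 1.13 for *Fabp5* and 1.17 for *Acsl4*. edgeR's quasi-likelihood test called 1916 and 2749 of all genes and 1 and 6 lipase partners, 1 and 1 transport proteins and 3 and 1 synthetases, and *Acsl4* at 1.12. Library sizes alone gave 3 upregulated and 2 down-regulated of the 10 genes, 306 and 5667 of all genes and 0 and 7 lipase partners, 0 and 2 transport proteins, 0 and 2 caveola components, 0 and 2 binding proteins, 1 and 2 synthetases and 0 and 1 acyl-CoA binding proteins, with log2 fold changes of -0.023 for *Cd36*, -2.40 for *Slc27a1*, -2.77 for *Slc27a4*, -0.80 for *Fabp4*, -0.73 for *Acsl5* and -0.021 for *Acbd3*. With DESeq2's size factors (RLE) in limma there were 1 and 1 transport proteins and *Acsl4* was called at 1.22. Without a filter there were 1 and 2 lipase partners, 0 and 2 transport proteins, 1 and 0 synthetases and 1 and 0 acyl-CoA binding proteins, and *Fabp4* was at -0.067. A minimum of 10 counts in each library left 1575 and 1864 of all genes called and 1 and 1 transport proteins and 0 and 0 binding proteins, with -0.065 for *Fabp4* and 1.04 for *Acsl4*. After the GC correction 1 upregulated and 0 down-regulated of the 10 genes, 830 and 458 of all genes and 0 and 1 lipase partners, 0 and 0 transport proteins, 0 and 0 caveola components, 4 and 1 synthetases and 1 and 0 acyl-CoA binding proteins were called, with 1.297 for *Lpl*, -0.30 for *Cd36*, 0.18 for *Slc27a1*, -0.77 for *Fabp4*, 1.18 for *Acsl1*, -0.055 for *Acsl5* and -0.20 for *Acbd3*. On basic transcripts these were 803 and 468 of all genes and 0 and 1 lipase partners, 0 and 0 transport proteins, 0 and 0 caveola components, 4 and 1 synthetases and 0 and 0 acyl-CoA binding proteins, with 1.25 for *Lpl*, -0.37 for *Cd36*, 0.56 for *Slc27a1*, -1.03 for *Fabp4* and -0.11 for *Acsl5*.

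The replicate block gave 5 upregulated and 2 down-regulated of the 10 genes, 3717 and 4290 of all genes and 1 and 7 lipase partners, 1 and 2 transport proteins, 0 and 2 caveola components, 1 and 1 binding proteins, 4 and 1 synthetases and 2 and 1 acyl-CoA binding proteins, with log2 fold changes of 0.82 for *Cd36*, -1.52 for *Slc27a1*, -2.03 for *Slc27a4* and 1.16 for *Acsl4*. The block with the GC correction gave 1 and 0 transport proteins, 1 and 1 binding proteins, 4 and 1 synthetases and 1 and 0 acyl-CoA binding proteins, with -0.31 for *Cd36*, 0.19 for *Slc27a1*, -0.75 for *Fabp4*, 1.18 for *Acsl1*, -0.057 for *Acsl5* and -0.20 for *Acbd3*, and *Lpl* was called. Of the genes named above, the block moved the calls of these 4 and of *Lmf1*, *Slc27a2* and *Ucp1*, and of no other.

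With each sample left out in turn, 0 to 4 of the 10 genes were upregulated and 0 to 2 down-regulated, 1 to 2729 and 0 to 3828 of all genes, and 0 to 1 and 0 to 6 of the lipase partners, 0 to 1 and 0 to 2 of the transport proteins, 0 and 0 to 2 of the caveola components, 0 and 0 to 1 of the binding proteins, 0 to 3 and 0 to 1 of the synthetases and 0 to 2 and 0 to 1 of the acyl-CoA binding proteins. The lowest counts came without floxed replicate 2, where limma called 1 and 0 of all genes (1926 and 2407 at an unadjusted p under 0.05), and the highest without floxed replicate 3. Log2 fold changes ranged over 1.75 to 2.41 for *Lpl*, -2.04 to -0.92 for *Slc27a1*, -2.54 to -1.31 for *Slc27a4*, -0.24 to 0.21 for *Fabp4*, 1.46 to 1.93 for *Acsl1*, 2.57 to 3.09 for *Acsl3*, 0.96 to 1.46 for *Acsl4* and -0.017 to 0.30 for *Acsl5*.

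The sizes of the ratios and *Acsl* shares depended on the length used and on the GC correction. All annotated exons of *Acsl1* span 10483 bases, against 3897 in its longest basic transcript. With all annotated exons as length, the shares of the other *Acsl* genes were larger. With the GC correction the difference in the *Fabp5* to *Fabp4* ratio between the groups was also larger. With 3 pools a group, GC content and mitochondrial share differing with genotype, and counts taken per gene, changes in single isoforms and in levels per cell were not measured. The lowest count of the 10 genes was 27, for *Slc27a4* in H3atKO replicate 3.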
